A study of Mus musculus with 24 samples.

Results

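The mouse Serpina cluster is a run of serpin genes on chromosome 12. The 10 genes described here are Serpina1a, Serpina1b, Serpina1c, Serpina1d, Serpina1e, Serpina3k, Serpina3m, Serpina3n, Serpina6 and Serpina12, taken from 22350 protein-coding genes of the autosomes and chromosome X. Serpins are proteins that trap proteases by offering a reactive loop as bait, and the liver secretes many of them into plasma. Serpina1a to Serpina1e are the mouse copies of alpha-1-antitrypsin, the main inhibitor of neutrophil elastase in blood. Serpina3k, Serpina3m and Serpina3n belong to the expanded antichymotrypsin-like group, Serpina6 encodes corticosteroid-binding globulin, which carries glucocorticoids in plasma, and Serpina12 encodes vaspin, a serpin also known from adipose tissue. The mark measured was H3K27ac, acetylation of lysine 27 of histone H3, which lies on active promoters and enhancers.

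The libraries were ChIP-seq of whole liver from untreated males and females, 8 weeks old by the labels, of the strain C57BL/6J, called B6 here, and of CAST/EiJ, a wild-derived strain called CAST here. There were 5 livers in each of the 4 groups, B6 male, B6 female, CAST male and CAST female, and 1 input library per group. Groups were read from the sample titles, since the strain field of the labels gives CAST/EiJ for every female and C57BL/6J for every male. The files used are 4 merged peak lists, each made from the pooled reads of the 5 livers of a group, so no value below has an SD or a test, and no spread between animals is known. The lists held 79818, 82176, 90228 and 84645 peaks on the autosomes and chromosome X for B6 male, B6 female, CAST male and CAST female, covering 70344942, 67104388, 72763167 and 65250450 bases in that order. Each of the 7 hepatocyte markers checked (Alb, Apoa1, Apob, Ttr, Cps1, Hnf4a and Tat) had a peak within 1 kb of a transcript start in every list, none of 4 genes that mark other organs had one in any list, and 39 peaks on chromosome Y were in the B6 male list and none in the others. Of the markers of other liver cells, 3 of 4 endothelial, 2 of 4 cholangiocyte, 1 of 4 stellate and 0 of 4 Kupffer cell markers had such a peak in every list. Whole liver holds many cell types, and fewer nuclei with the mark cannot be told apart from less of it per nucleus.

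A peak was assigned to a gene when it overlapped the gene body or the 10 kb on either side (mm9 coordinates). This gave windows of 27094 to 35675 bases, which together make 9 separate stretches of 295028 bases because the Serpina3m and Serpina3n windows overlap. In mm9 order, the genes on the minus strand are Serpina6 at chr12:104884840-104895422, Serpina1b at chr12:104966366-104976368, Serpina1d at chr12:105001804-105011802, Serpina1a at chr12:105091799-105104137, Serpina1c at chr12:105133136-105143097, Serpina1e at chr12:105185141-105197185 and Serpina12 at chr12:105266979-105282653. On the plus strand follow Serpina3k at chr12:105576696-105583951, Serpina3m at chr12:105625374-105632467 and Serpina3n at chr12:105644939-105652539. The cluster contains another 17 Serpina genes and pseudogenes, which serve for comparison. Reads were kept by the authors only when they mapped to a single place, and CAST reads were mapped to a version of mm9 into which known CAST variants had been written. Sequence that several genes share could therefore keep few or no reads, which matters for Serpina1a to Serpina1e.

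The sequences show how alike the Serpina1 genes are. The promoters below run from 250 bases before to 50 bases after the RefSeq start (sequences of build GRCm38.p6), each found as a single exact match in mm9, read 5′ to 3′ on the minus strand. Capitals mark the HNF1 letters GTTAAT and the C/EBP letters TTGCNNAA, both searched on both strands. They are shown because they let the likeness of the copies be seen. The peaks near the Serpina1b start described below lie downstream of the printed stretch.
Serpina1b, chr12:104976350-104976649: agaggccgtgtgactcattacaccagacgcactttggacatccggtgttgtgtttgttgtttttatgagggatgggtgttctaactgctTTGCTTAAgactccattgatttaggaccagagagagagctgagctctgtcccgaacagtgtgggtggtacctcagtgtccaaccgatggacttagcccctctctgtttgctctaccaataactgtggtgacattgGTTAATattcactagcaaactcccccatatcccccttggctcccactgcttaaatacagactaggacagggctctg
Serpina1d, chr12:105011794-105012093: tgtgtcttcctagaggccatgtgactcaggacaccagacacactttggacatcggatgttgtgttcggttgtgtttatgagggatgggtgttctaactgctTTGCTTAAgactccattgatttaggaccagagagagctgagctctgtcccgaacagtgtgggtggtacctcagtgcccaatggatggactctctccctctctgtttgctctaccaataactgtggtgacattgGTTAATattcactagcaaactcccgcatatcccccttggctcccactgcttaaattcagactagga
Serpina1a, chr12:105101780-105102079: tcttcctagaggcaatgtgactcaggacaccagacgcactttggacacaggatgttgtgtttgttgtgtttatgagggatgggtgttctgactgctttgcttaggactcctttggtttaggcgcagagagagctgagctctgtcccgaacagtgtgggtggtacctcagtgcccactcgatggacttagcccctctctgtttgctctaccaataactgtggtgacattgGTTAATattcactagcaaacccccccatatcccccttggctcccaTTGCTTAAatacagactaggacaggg
Serpina1c, chr12:105143111-105143410: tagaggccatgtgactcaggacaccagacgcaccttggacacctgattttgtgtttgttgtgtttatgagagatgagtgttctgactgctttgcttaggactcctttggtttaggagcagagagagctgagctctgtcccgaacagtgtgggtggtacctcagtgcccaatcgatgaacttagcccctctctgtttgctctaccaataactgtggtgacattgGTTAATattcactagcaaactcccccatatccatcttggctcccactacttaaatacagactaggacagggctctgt
Serpina1e, chr12:105195058-105195357: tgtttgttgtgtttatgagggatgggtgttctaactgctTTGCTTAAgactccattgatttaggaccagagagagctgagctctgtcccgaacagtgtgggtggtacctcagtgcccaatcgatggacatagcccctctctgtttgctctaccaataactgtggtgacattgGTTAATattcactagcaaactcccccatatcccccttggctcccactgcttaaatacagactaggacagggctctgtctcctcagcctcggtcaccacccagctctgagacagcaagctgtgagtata
Pairs of these promoters were identical at 91.4% to 97.6% of aligned bases, with a median of 94.15% over 10 pairs. Their transcripts were identical at 94.2% to 97.7%. At these RefSeq starts all 5 hold the HNF1 letters, and all but Serpina1c hold the C/EBP letters, which in Serpina1a lie downstream of the start and in the other 3 upstream. At GENCODE starts the HNF1 letters were in Serpina1b, Serpina1c and Serpina1d and the C/EBP letters in Serpina1b and Serpina1d. HNF1 is a liver-enriched activator, and C/EBP proteins act at many liver genes. Over 22342 protein-coding promoters of the same length, 6.07% hold the HNF1 letters and 10.2% the C/EBP letters, and a match shows letters and not a bound site. The STAT letters TTCNNNGAA (7.79% of all promoters) and the HNF4 letters CAAAGTCCA (0.479%) were in none of the member promoters. Among the other members, taken at their GENCODE starts, the C/EBP letters were in the Serpina6 and Serpina12 promoters, and no letters searched were in those of Serpina3k, Serpina3m and Serpina3n.

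The longest stretch that is the same in all 5 Serpina1 genes is 226 bases of coding exon, printed once here from Serpina1b (chr12:104970237-104970462, minus strand, with no capitals).
Shared coding stretch: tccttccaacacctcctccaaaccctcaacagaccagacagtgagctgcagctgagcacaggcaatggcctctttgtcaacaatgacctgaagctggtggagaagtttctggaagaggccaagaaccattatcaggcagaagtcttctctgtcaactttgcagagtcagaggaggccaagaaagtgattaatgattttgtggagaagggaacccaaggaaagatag
It occurs 5 times on chromosome 12 and on no other autosome or chromosome X, at chr12:105005692-105005917 in Serpina1d, chr12:105095701-105095926 in Serpina1a, chr12:105137034-105137259 in Serpina1c and chr12:105189057-105189282 in Serpina1e. In all, 22 runs of at least 50 bases, 1604 bases together, were shared by the 5 genes.

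Sequence of this kind limits what a read of 50 bases, the read length of the study, can be assigned to. Of the 50-mers of the gene body, 49.9% occurred once in the genome in Serpina1a, 60.9% in Serpina1b, 44.7% in Serpina1c, 57.3% in Serpina1d and 60.5% in Serpina1e. With the 10 kb flanks the shares were 50.5%, 56.0%, 48.8%, 43.7% and 77.5%. The other members lay well above, at 88.5% for Serpina3k, 92.6% for Serpina3m, 96.7% for Serpina3n, 97.2% for Serpina6 and 97.5% for Serpina12. The median over 704 protein-coding windows of chromosome 12 was 96.1%. Counting copies within the cluster that differ at up to 2 bases, only 10.5% to 18.6% of the 50-mers of the Serpina1a to Serpina1e gene bodies stood alone, against 75.5% to 100.0% for the other 5 members. Read pairs have more to go on, since either end of a 200 bp fragment was unique for 61.8% to 90.6% of positions in the Serpina1a to Serpina1e windows. The CAST genome sequence was not analysed here, so these shares hold for B6 sequence.

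**Figure D1:**
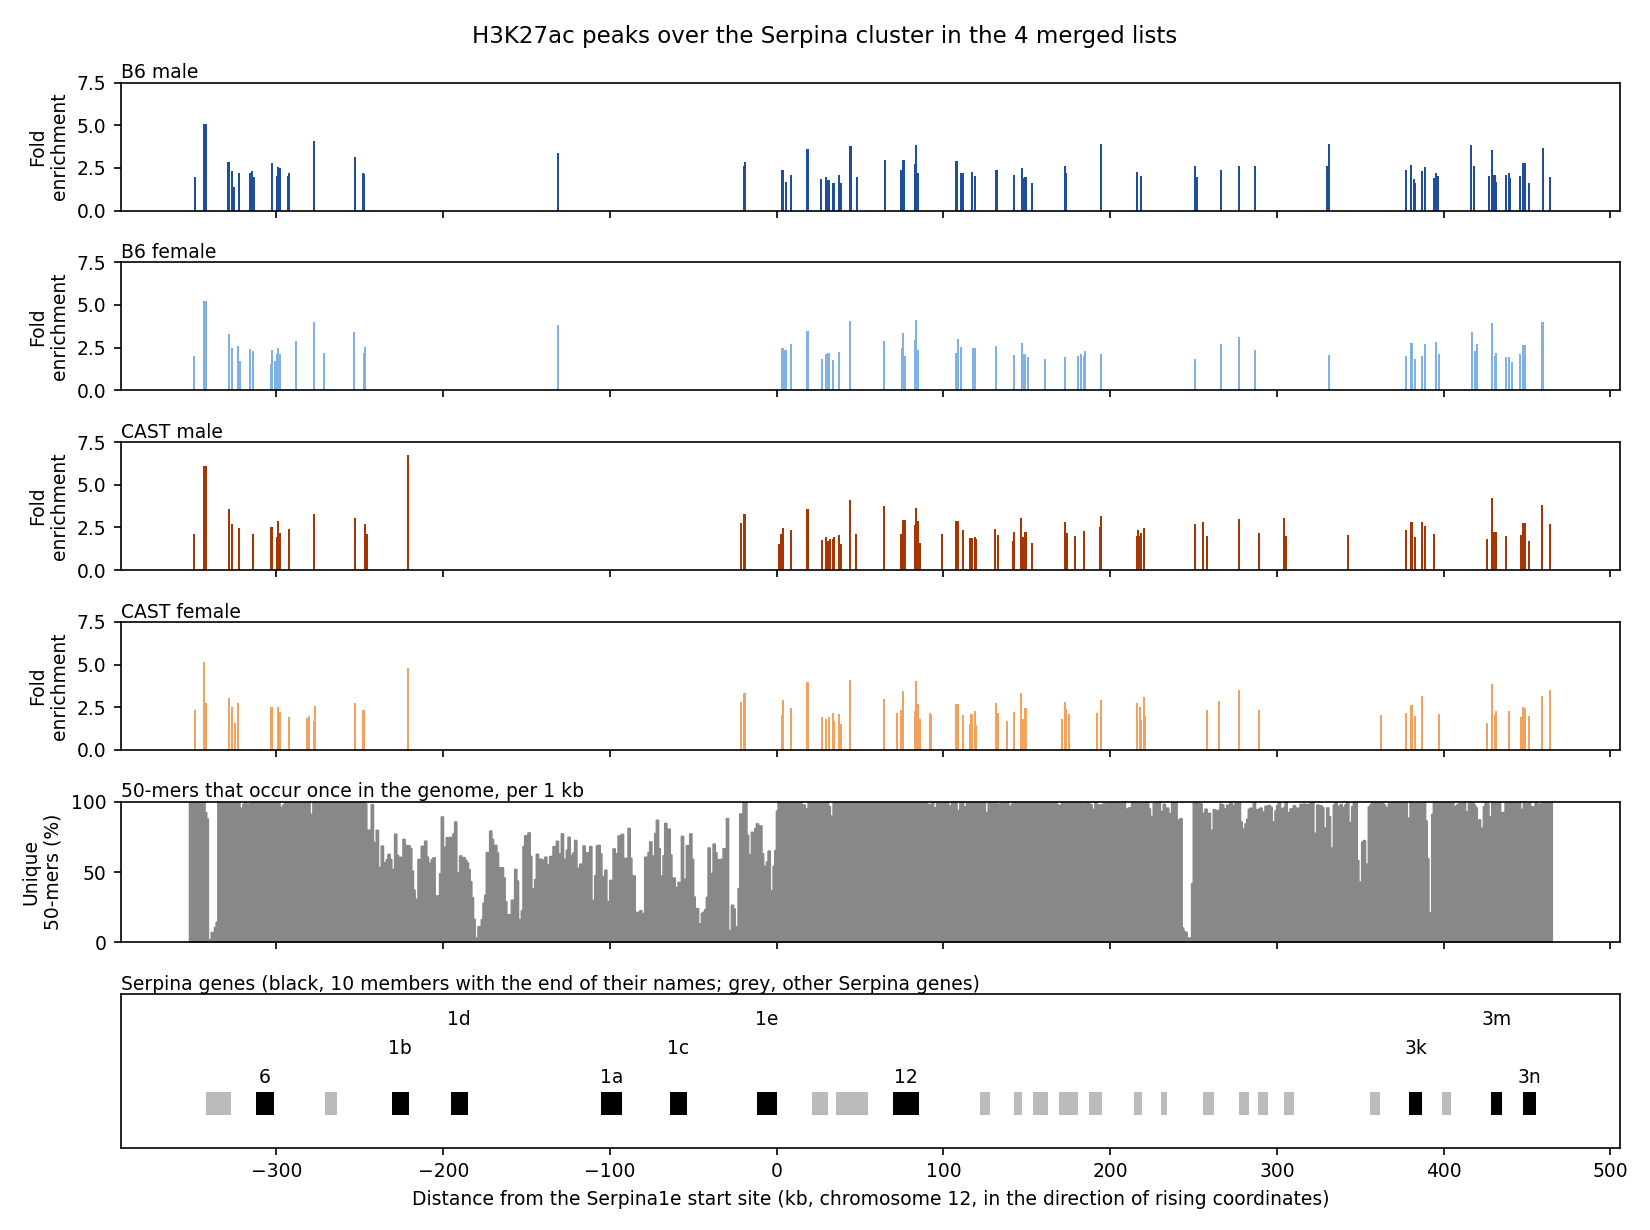
Fold enrichment of each peak (top 4 panels, bars at least 1.2 kb wide so that they can be seen), share of unique 50-mers per 1 kb (grey) and gene positions, against the distance from the Serpina1e start site in kb. No list has a peak over the gene bodies of Serpina1d, Serpina1a, Serpina1c or Serpina1e, where the grey track is low. Serpina1b carries a peak in the CAST lists only. With 10 kb flanks the other 6 members have peaks in all 4 lists, those of Serpina1e outside the gene body.

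Serpina1a, Serpina1c and Serpina1d had 0 peaks in each of the 4 lists. Among all protein-coding genes, 23.5% had no peak in any list within 10 kb, and a count of 3 in 10 members lies near that share. Coverage by peaks of the 6 members other than Serpina1a to Serpina1d was above that of 71.2% to 97.4% of all genes. The longest stretch of the cluster with no peak in any list ran from 105065794 to 105175300, which is 109.5 kb and holds Serpina1a and Serpina1c. In the B6 lists the longest such stretch was 115.0 kb and held Serpina1b and Serpina1d. In the CAST lists it was 199.1 kb and held Serpina1d, Serpina1a and Serpina1c. The running peak numbers had no gaps within the cluster in any list. In the whole B6 male and B6 female lists 599 and 579 numbers were missing, none of them here. The CAST lists had no missing number anywhere, and no peak on chromosome Y even in males, so they may have been filtered or renumbered in another way than the B6 lists. Their numbers then do not show whether peaks were removed, and whether this bears on regions called in a single strain was not tested. On chromosome 12, 42 protein-coding windows were under 60% unique 50-mers, and 5 of them (11.9%) had a peak in any list, Serpina1b included. Of the 662 windows at 60% or more, 582 (87.9%) had a peak. Many of the 42 bear the Gm names of predicted genes, and whether such genes are active in liver was not tested. These shares are therefore no measure of the effect of mapping. Whether H3K27ac lies on Serpina1a, Serpina1c and Serpina1d in these livers cannot be told from the lists, because unassignable reads and unmarked chromatin cannot be told apart. The same limit holds for the Serpina1e gene body, which had 0 peaks in every list, and for Serpina1b in B6.

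**Figure D2:**
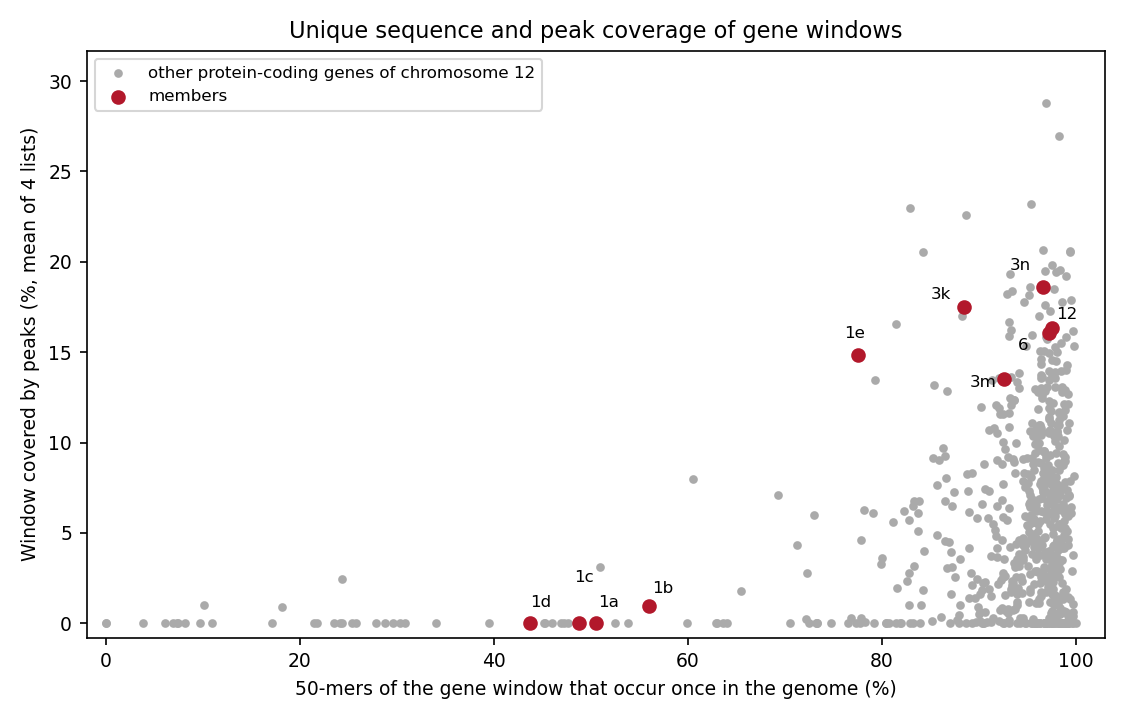
Share of 50-mers that occur once in the genome (x axis, %) against the share of the window covered by peaks (y axis, %, mean of the 4 lists) for protein-coding windows of chromosome 12. Serpina1a to Serpina1d sit between 43.7% and 56.0% on the x axis, at or near 0 on the y axis, and the other 6 members lie at 13.5% or more.

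Serpina1b was called in CAST and not in B6. The CAST male list had a peak of 625 bases there (chr12:104975549-104976173) with a fold enrichment of 6.76 over the local background. The CAST female list had a peak of 531 bases (chr12:104975540-104976070) with a fold enrichment of 4.82. The B6 male and B6 female lists had 0 peaks in the window. With 25 kb flanks every list had peaks, over 3036 bases in B6 male, 2235 in B6 female, 2774 in CAST male and 2952 in CAST female, so the CAST-only call holds for the gene and its 10 kb flanks. The CAST male peak stood at the 85.5th percentile of scores in its list and the CAST female peak at the 76.3rd. Unique 50-mers made up 73.3% and 68.5% of them, so a filter at 80% unique would leave no Serpina1b peak in any list. Both lie in an intron, with summits 520 and 536 bases downstream of the annotated start. The sequence around the male summit is printed next, from the minus strand of mm9, because both summits fall inside a simple repeat. Capitals mark bases that at least 1 unique 50-mer covers.
Serpina1b peak, chr12:104975698-104975997: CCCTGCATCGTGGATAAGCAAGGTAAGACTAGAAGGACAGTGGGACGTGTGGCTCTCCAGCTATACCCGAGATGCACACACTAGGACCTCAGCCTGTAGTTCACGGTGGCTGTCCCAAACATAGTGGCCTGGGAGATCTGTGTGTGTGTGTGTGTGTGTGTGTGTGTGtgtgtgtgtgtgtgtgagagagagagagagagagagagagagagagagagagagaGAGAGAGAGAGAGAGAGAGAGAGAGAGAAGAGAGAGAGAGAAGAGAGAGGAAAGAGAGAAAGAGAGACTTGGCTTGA
The window holds 23 units of TG followed by 33 units of AG, 46 and 66 bases. Of the 300 bases, 245 are covered by a unique 50-mer.

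These were the highest fold enrichments of any member peak in the CAST lists, and they rest on a low denominator. The deposited fold enrichment and p-value together fix the fragment pileup at the summit and the local background that the peak caller used, and the solved pileups came out within 0.05 of a whole number for 99.95% to 99.98% of solved peaks, depending on the list. At Serpina1b the local background equalled the background of the whole genome, 17.8 fragments in CAST male and 16.8 in CAST female, with pileups of 126 and 85 fragments. Divided by the genome background, this is 7.09 (95% Poisson interval 5.90 to 8.44) in CAST male and 5.05 (4.03 to 6.25) in CAST female. The intervals cover counting error only, and they overlap. At the promoter peaks of the other 5 members the local background was 2.79 to 5.10 times the genome background, and the pileups were 9.30 to 13 times the genome background. By fold enrichment Serpina1b stood highest of the members with a promoter peak in each CAST list, and by pileup it stood lowest.

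**Figure D3:**
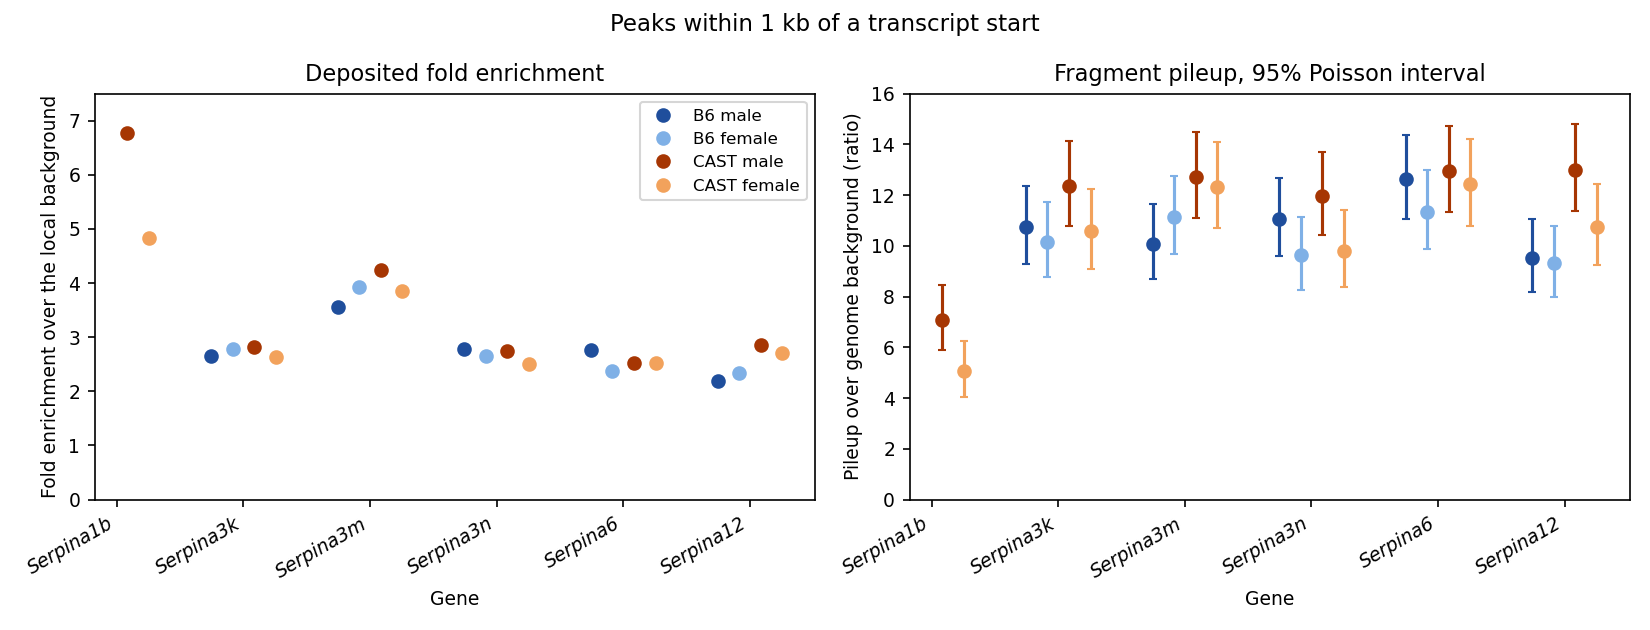
Left, deposited fold enrichment of the best-scoring peak within 1 kb of a transcript start, by list (colours). Right, fragment pileup of the same peaks over the genome background of the list, with 95% Poisson intervals. Serpina1b has points for CAST only, at 6.76 and 4.82 on the left and 7.09 and 5.05 on the right.

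The B6 lists had a peak at a similar distance from a related sequence elsewhere. A 50-mer of the Serpina1 promoters occurs 6 times in the genome, 5 times at the Serpina1 genes and once at chr12:105066280-105066329, between Serpina1d and Serpina1a, where GENCODE has no gene within 3 kb. Downstream of this copy, and outside the gene windows, the B6 male list had a peak of 440 bases (chr12:105065354-105065793, fold enrichment 3.36) and the B6 female list a peak of 406 bases (chr12:105065379-105065784, fold enrichment 3.81). The CAST lists had none there. The B6 summits lay 648 and 658 bases downstream of the shared 50-mer, and the CAST summits at Serpina1b lay 607 and 623 bases downstream of theirs. In the interval from 282 to 906 bases downstream, unique 50-mers made up 82.7% at the copy without a gene, 73.3% at Serpina1b, 67.7% at Serpina1a, 59.0% at Serpina1c, 53.9% at Serpina1d and 48.8% at Serpina1e. This interval is that of the CAST male peak at Serpina1b, so it was set by the values compared. The B6 lists had no peak at Serpina1b. The CAST lists had none at the copy without a gene, which had the largest unique share in mm9. The copy without a gene was also the least like Serpina1b over this interval, identical at 68.7% of 825 aligned columns, against 87.7% to 92% for the other 4. Its longest TG and AG runs were 28 and 16 bases, against 46 and 66 at Serpina1b. This comparison was made after the values were seen, and the part of mapping or of copy differences between the strains in it was not tested.

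**Figure D4:**
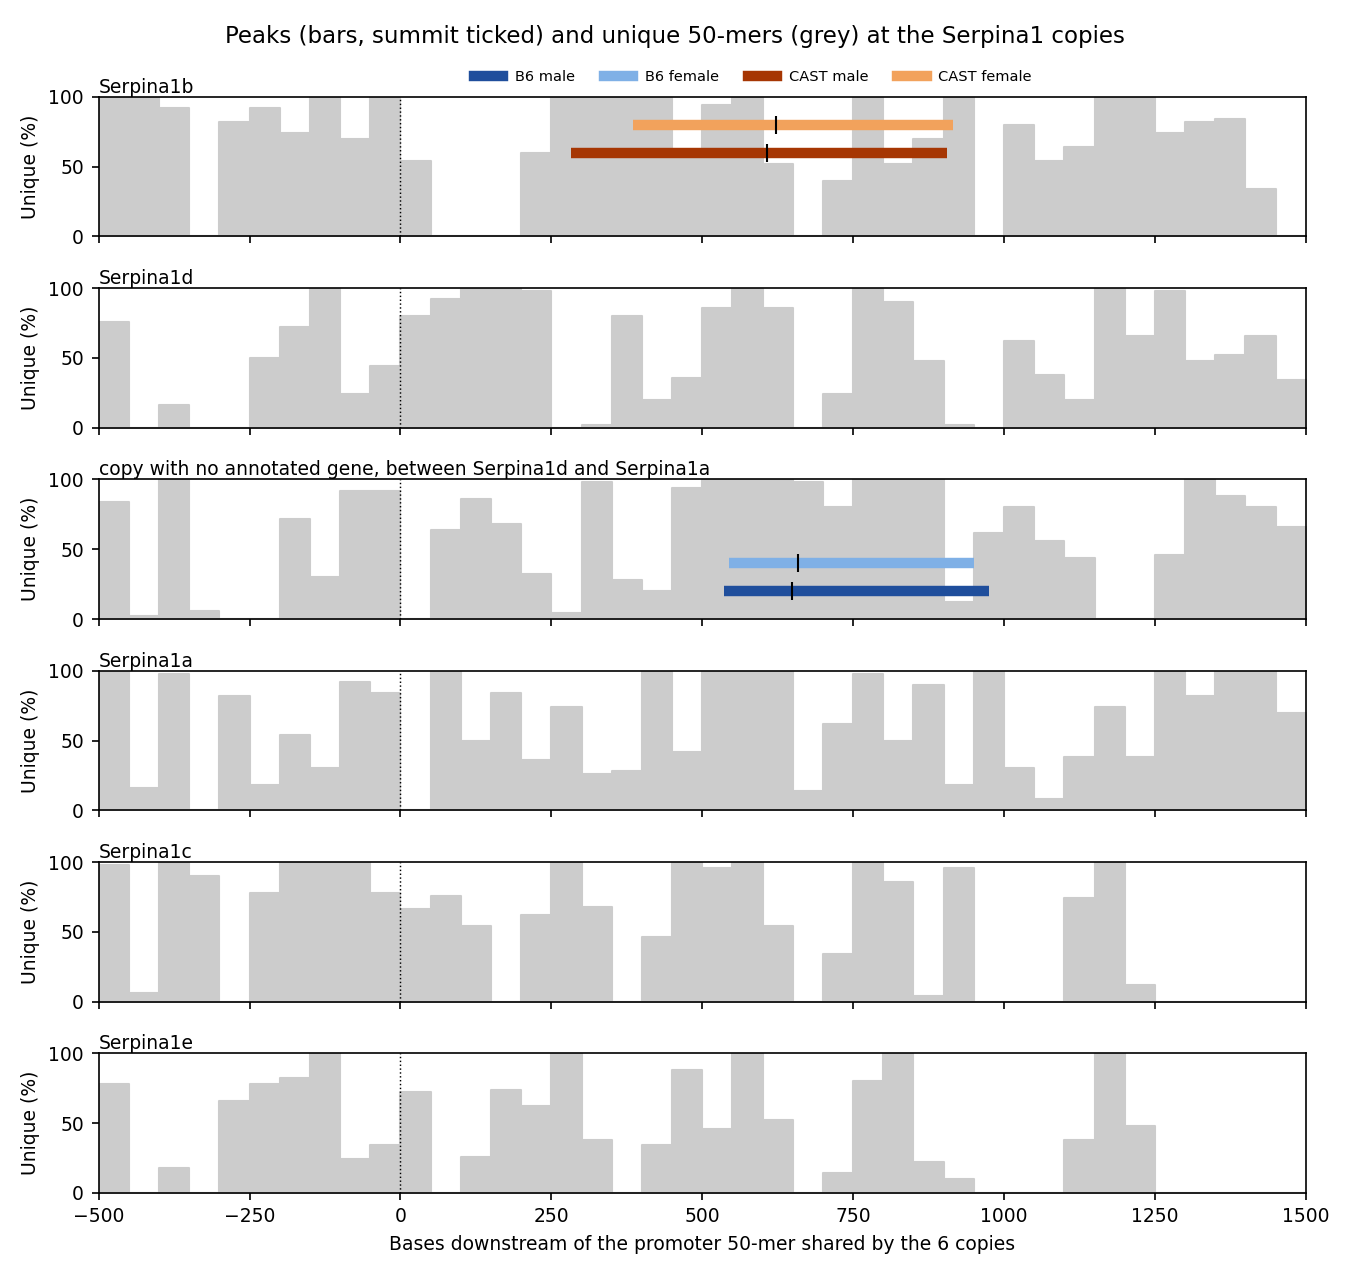
The 6 copies aligned on their shared promoter 50-mer (dotted line), with the share of unique 50-mers per 50 bases (grey) and peaks as bars with the summit ticked, against bases downstream. The CAST bars lie at Serpina1b and the B6 bars at the copy without a gene, with all 4 summits between 607 and 658 bases.

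Serpina1e had the largest unique share among the Serpina1 windows, and all of its peaks lay outside the gene body. The window had 5 peaks over 5624 bases in B6 male, 3 over 2834 in B6 female, 6 over 5883 in CAST male and 5 over 4702 in CAST female. As shares of the window these were 17.6%, 8.84%, 18.4% and 14.7%, so the B6 female list stood lowest. The female to male ratio of covered bases was 0.504 in B6 and 0.799 in CAST, beside medians over all genes of 0.970 (quartiles 0.868 and 1.07) and 0.927 (0.816 and 1.03). The CAST to B6 ratio was 1.05 in males and 1.66 in females, beside medians of 1.01 and 0.968. The widest region called in all lists spanned 2156 bases (chr12:105199435-105201590), 2.25 kb upstream of the nearest annotated start, with fold enrichments of 2.38, 2.5, 2.49 and 2.94 in B6 male, B6 female, CAST male and CAST female. By pileup over the genome background the order differed. B6 female had 8.29 (7.04 to 9.70), against 13.2 (11.6 to 14.9) in B6 male, 16 (14.2 to 17.9) in CAST male and 13.5 (11.8 to 15.4) in CAST female. The local background beside these summits was 61.4 fragments in B6 female and 101.3 in B6 male, so the fold enrichments of the B6 lists came out alike. Neither difference has a replicate check.

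A region 3′ of Serpina1e (chr12:105176812-105178942), between genes, was called in every list but B6 female. B6 male had 2 peaks in it, of 472 and 1151 bases, with fold enrichments of 2.58 and 2.84. CAST male had a single peak of 2131 bases at 3.30, and CAST female a peak of 2078 bases at 3.31. The best percentiles were 44.4, 54.9 and 55.5, so these were middling peaks of their lists. Their pileups were low, 49 and 54 fragments in B6 male, 61 in CAST male and 58 in CAST female, and the local background was that of the whole genome. All 50-mers of the region were unique. Beside it, a region of 333 bases (chr12:105175301-105175633) was called in both CAST lists only, at 2.77 and 2.80. Upstream, a region of 817 bases (chr12:105201863-105202679) was called in both B6 lists only, at 1.66 in males and 2.34 in females.

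Of the antichymotrypsin-like members, Serpina3k had 9 peaks in B6 male, 7 in B6 female, 6 in CAST male and 5 in CAST female. They covered 21.4%, 19.2%, 16.4% and 13% of the window, so both B6 lists lay above both CAST lists. The CAST to B6 ratios of covered bases were 0.768 in males and 0.679 in females, and the female to male ratios were 0.896 in B6 and 0.792 in CAST. In the gene body itself the 4 lists were near each other, at 2698, 2901, 2912 and 2837 bases, so the difference lay in the flanks. The promoter region of 2022 bases (chr12:105576849-105578870), which takes in coding and UTR exon, was called in all lists at fold enrichments of 2.65, 2.79, 2.82 and 2.63. Downstream of the gene, a region at chr12:105585117-105586046 was called in B6 male (2.52), B6 female (2.70) and CAST male (2.56) and not in CAST female. Another at chr12:105591801-105592689 was called in both B6 lists only, at 2.17 and 2.84.

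Serpina3m had 7, 8, 5 and 5 peaks in B6 male, B6 female, CAST male and CAST female, over 14.5%, 14.7%, 11.2% and 13.7% of its window. Its promoter peak, 1355 bases over an intron across the lists (chr12:105625496-105626850), had fold enrichments of 3.56, 3.93, 4.24 and 3.85. Its percentile was 82.4 to 87.0. By fold enrichment it stood above the promoter peaks of Serpina3k and Serpina3n in every list. By pileup over the genome background it did not in B6 male, where Serpina3m had 10.1, Serpina3k 10.7 and Serpina3n 11.1. The local background at Serpina3m was the lower, 2.79 times the genome background against 4.02 and 3.93 in that list. Smaller regions of its flanks were called in a single list, among them 1 of 395 bases 1.21 kb upstream in B6 male (chr12:105623774-105624168, 2.0) and 1 of 223 bases 8.82 kb upstream in B6 female (chr12:105616331-105616553, 2.69). Serpina3k and Serpina3m were identical at 93.3% of promoter and 90.6% of transcript bases, and each had its own promoter peak in every list. The promoter stretches compared held 74.5% and 72.1% unique 50-mers. In every list the promoter peaks began downstream of these stretches, in regions where all 50-mers were unique. These peaks therefore do not show whether the shared promoter sequence can carry a call.

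Serpina3n, which rises in the acute-phase response, had 7, 5, 5 and 7 peaks over 18.5%, 19.1%, 17.2% and 19.6% of its window. The female to male ratios of covered bases were 1.03 in B6 and 1.14 in CAST, and Serpina3m had 1.02 and 1.22, so with 10 kb flanks these were the members with a ratio above 1 in both strains. Their windows overlap, and regions lying in both count at each gene, so their ratios partly rest on the same peaks. The region at chr12:105635515-105636456 had 530, 385, 0 and 764 covered bases in B6 male, B6 female, CAST male and CAST female. The one at chr12:105637835-105638188 had 354 in B6 female only. Ratios without these regions were not computed. The direction of the ratios depends on the flank. In the gene body Serpina3n covered 1904 bases in B6 male and 1678 in B6 female, and 2169 in CAST male and 1934 in CAST female. Serpina3m covered 2465 and 2347 in B6 male and female and 2213 and 2610 in CAST. With 25 kb flanks the B6 male list had more covered bases than B6 female at both genes (8512 against 8208 at Serpina3n, 9817 against 9084 at Serpina3m). In CAST the female list stayed above the male list (8658 against 8282 at Serpina3n, 7295 against 7087 at Serpina3m). The region of 2325 bases at the Serpina3n start (chr12:105644343-105646667) was called in all lists at fold enrichments of 2.79, 2.66, 2.74 and 2.51. The start at 105644939 is covered in the first 3 of these, and in CAST female it falls between a pair of peaks (chr12:105644353-105644774 and chr12:105645011-105646667). A region of 1675 bases 10.9 kb from the start, beyond the 3′ end (chr12:105655799-105657473), reached 3.66, 3.99, 3.78 and 3.17. Farther on, a region at chr12:105660115-105661186 had fold enrichments of 1.97 in B6 male, 2.67 in CAST male and 3.53 in CAST female and was not called in B6 female. Between Serpina3m and Serpina3n, a region at chr12:105635515-105636456 was called in every list but CAST male, at 2.19, 1.96 and 2.28.

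Serpina6 had 9, 9, 6 and 4 peaks in B6 male, B6 female, CAST male and CAST female, and they covered 19.3%, 17.1%, 15.5% and 12.5% of the window. Both B6 lists again lay above both CAST lists, with CAST to B6 ratios of 0.803 in males and 0.728 in females, and the female to male ratios were 0.889 and 0.806. The region over a UTR exon at an annotated start, 2211 bases (chr12:104893126-104895336), had fold enrichments of 2.77, 2.37, 2.52 and 2.52. In the gene body the order was the opposite, with 1698 and 1933 bases covered in B6 male and female and 2077 and 2140 in CAST male and female. What the CAST lists lacked lay in the flanks. A region 10.7 kb from the nearest start, beyond the 3′ end (chr12:104880720-104881682), was called in both B6 lists only, at 2.22 and 2.44. Another beside it (chr12:104881979-104882348) was called in B6 male alone at 2.31. B6 female alone had a region of 243 bases 0.387 kb upstream (chr12:104895809-104896051, 1.73) and another of 226 bases toward Serpina10 (chr12:104874785-104875010, 1.69). CAST female lacked 2 regions that the other 3 lists had, at chr12:104896902-104897429 (2.04, 2.12 and 1.95) and chr12:104882561-104883443 (1.98, 2.29 and 2.11).

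Serpina12 had the highest pileup of all members. Its intronic region of 1129 bases, 1.64 kb downstream of the start (chr12:105279885-105281013), was called at fold enrichments of 3.83, 4.09, 3.62 and 4.05 in B6 male, B6 female, CAST male and CAST female. The pileups there were 17.1, 16.6, 16.9 and 16.2 times the genome background, and the percentiles were 88.0 to 91.1. The 4 lists thus differed little at this peak. The window had 6, 7, 7 and 10 peaks over 16.4%, 15.2%, 18.8% and 15.0% of its bases. The female to male ratios were 0.929 and 0.799 and the CAST to B6 ratios 1.14 and 0.984. The widest region, 2450 bases over a coding exon (chr12:105272213-105274662), had fold enrichments of 2.93, 3.37, 2.94 and 3.44. At the start, a region (chr12:105282341-105282709) was called in CAST only, at 1.57 in males and 1.78 in females. The CAST female peak (chr12:105282434-105282709) covers the annotated start at 105282653, and the CAST male peak (chr12:105282341-105282586) ends short of it. The promoter peak of all lists, the best-scoring within 1 kb, lay in an intron (chr12:105281282-105281830). CAST female alone had 3 regions, 1 over the 3′ UTR exon (chr12:105268457-105268721, 2.19) and 2 upstream (chr12:105288323-105288580, 2.17, and chr12:105289157-105289382, 2.05).

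**Figure D5:**
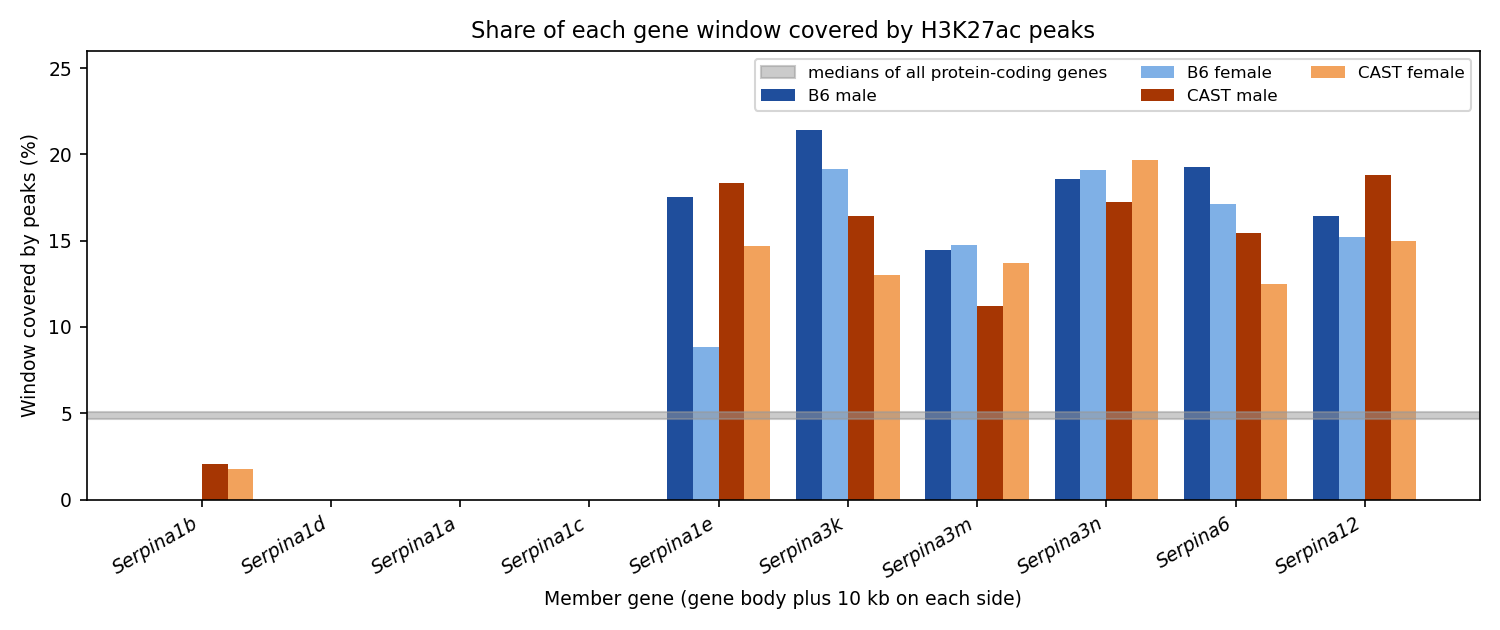
Share of each gene window (gene body plus 10 kb on each side) covered by peaks, in %, by list (colours). The grey band marks the medians of all protein-coding genes, 4.66% to 5.10%. Serpina1a, Serpina1c and Serpina1d are at 0 in all lists, Serpina1b is at 0 in B6, and the other members lie at 8.84% or more in every list.

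Across the members, a promoter peak within 1 kb of a transcript start was present in all 4 lists at 5 of 10 genes (Serpina3k, Serpina3m, Serpina3n, Serpina6 and Serpina12), in CAST only at Serpina1b and in no list at Serpina1a, Serpina1c, Serpina1d and Serpina1e, where the nearest Serpina1e peak, in CAST male, began 1025 bases upstream. The count depends on the distance. Within 500 bp it was 4, without Serpina12, whose B6 peaks lie farther from the start, and within 2.5 kb it was 6, with Serpina1e. These distances run from GENCODE starts, and the RefSeq start of Serpina1e lies 2078 bases farther from that peak. The promoter at that RefSeq start held 31.5% unique 50-mers, so the lack of a call there does not show a lack of the mark. Of all protein-coding genes, 55.2% had a promoter peak in all lists, 37.2% in no list and 3.25% in CAST lists only, and the CAST lists hold more peaks than the B6 lists. Among the 17 other Serpina genes of the cluster, 5 had it in all lists, including Serpina10, an inhibitor of coagulation factors, and Serpina11. Another 8 had it in no list, and the remaining 4 (Serpina3d-ps, Serpina3f, Serpina3h and Serpina3i) had it in CAST lists only. Of 6 serpins of the liver encoded elsewhere, all 6 had it in all lists. These were Serpinc1 (antithrombin), Serpind1 (heparin cofactor II), Serpinf1, Serpinf2 (alpha-2-antiplasmin), Serping1 (C1 inhibitor) and Serpina7 (thyroxine-binding globulin). Their windows held 92.8% to 97.5% unique 50-mers.

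The gene windows held 51 regions when the 4 lists were merged, and 21 of them (41.2%) were called in all lists, beside 40.4% of all 119348 regions. Male-only regions made up 8 of 43 (18.6%) in B6 and 6 of 40 (15.0%) in CAST, beside 17.4% and 21.5% of all regions called in that strain. Female-only regions made up 5 of 43 (11.6%) in B6 and 5 of 40 (12.5%) in CAST, beside 17.5% and 14.1%. B6 males and females shared 30 regions, of which 3 (10.0%) appeared in neither CAST list, beside 8.4%. CAST males and females shared 29, of which 4 (13.8%) appeared in neither B6 list, beside 11.8%. Most of these shares lay close to those of the whole lists, while those of B6 female-only and CAST male-only regions were lower, on 5 and 6 regions. By number of lists, 12 of the 51 regions (23.5%) were called in 1 list, 8 (15.7%) in 2 and 10 (19.6%) in 3. Over all regions these shares were 32.4%, 16.5% and 10.7%. At the 21 regions called in all lists, the median log2 difference in fold enrichment, female minus male, was 0.07 in B6 and -0.07 in CAST, beside 0.01 and -0.08 over all 48266 such regions. CAST minus B6 was 0.07 in males and 0.03 in females, beside 0.10 and 0.01. In total the windows had 41, 37, 36 and 36 peaks over 31710, 27258, 30209 and 26309 bases in B6 male, B6 female, CAST male and CAST female, or 10.7%, 9.24%, 10.2% and 8.92%.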

How the data were processed

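H3K27ac ChIP-seq of 20 livers, 5 per group, with 1 input per group (24 samples) had been processed by the authors. Per the labels and the study's methods, paired reads of 50 bases were mapped with Bowtie2 (B6 to mm9, CAST to mm9 carrying known CAST SNPs and indels, with coordinates converted back), uniquely mapped reads were kept, the reads of the 5 livers were merged, and MACS2 called peaks over the group's input. Blacklisted regions and peaks made of PCR duplicates were removed. The deposited peak lists give a fold enrichment over the local background, which is a ratio, a p-value as −log10 p and a q-value as −log10 q, which the authors' peak caller computed at each summit. The deposited score is 10 times −log10 q, rounded down, in 100% of peaks. The number of reads per library is not used here, and precision is given only as Poisson intervals (95%) on solved fragment pileups, which cover counting error only.

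Groups followed the sample titles. The members and gene lists were chosen with earlier results of these data known. Peaks were assigned by an overlap of at least 1 base, peaks of the 4 lists were merged into regions, and a percentile is a peak's rank by score in its own list. Pileup and local background were solved from fold enrichment and p-value under the Poisson model of MACS2. Uniqueness was counted over all 50-mers of mm9, both strands. Gene models were GENCODE, and RefSeq promoter sequences were placed in mm9 by exact match. Named regions were, for each sex or strain class, the 3 with the highest percentile in the lists that called them, and the widest region of each member called in all lists. Other regions in the text were picked after their values were seen. Without replicate lists no test was made. The steps that count peaks and regions were tested on simulated intervals. Tools were Python 3.11.15, numpy 2.4.6, pandas 2.3.3, scipy 1.17.1, numba 0.67.0, matplotlib 3.10.9, biopython 1.88 and bwa 0.7.19-r1273. Alternatives varied the flank, the list length and strength, the merging of peaks, the uniqueness measure, the promoter distance and the start sites.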

Additional observations from a re-analysis of the deposited data

Results flagged for a closer look

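A B6 peak lies in the cluster outside all gene windows, beside a copy of the Serpina1 promoter sequence that has no annotated gene. Its fold enrichment was 3.36 in B6 male (chr12:105065354-105065793) and 3.81 in B6 female (chr12:105065379-105065784), and neither CAST list had a peak there. It drew attention because it appears in data that the gene-by-gene comparison does not use, above the input background. The peaks held 64 and 74 fragments at the summit and stood at the 57.5th and 65.9th percentile of their lists. The choice was made after the values were seen, and whether reads of another Serpina1 copy contribute to it was not tested.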

How the results depend on the processing

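No paired analysis was possible because each list pools the 5 livers of its group, and for the same reason no replicate could be left out. With the gene body and no flank, regions called in all lists numbered 13 (21 with 10 kb flanks), male-only regions 1 in B6 and 0 in CAST (8 and 6), female-only regions 0 and 1 (5 and 5), regions of B6 alone 0 (3) and of CAST alone 2 (4), and covered bases were 13762, 13138, 15689 and 13890 in B6 male, B6 female, CAST male and CAST female. With 25 kb flanks, CAST female-only regions numbered 9. With the top 50% of scores of each list, male-only regions numbered 1 in B6 and 3 in CAST, female-only regions 1 and 2, regions of B6 alone 0, and covered bases in B6 male 19743. With peaks up to 500 bp apart merged, B6 female-only regions numbered 3. The sex-only and B6-only regions thus lay largely in the flanks, while 2 of the 4 CAST-only regions overlapped a gene body. Of the 21 regions called in all lists, 13 did. Lists of equal length, a 50% overlap and the removal of peaks under 80% unique left the counts within 1.5 times, but the last removed both Serpina1b peaks and so ended the Serpina1b call, leaving 4 members with no peak in place of 3. The median unique share of the Serpina1a to Serpina1e windows was 50.49% at 50 bases, 79.77% at 100 bases and 73.14% for either end of a 200 bp fragment. Choices added after the data were seen gave 15.11% when copies with up to 2 mismatches in the cluster counted, and 5 instead of 3 promoters with the HNF1 letters, and 6 instead of 4 with the C/EBP letters, at RefSeq starts.

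Serpina1a, Serpina1c and Serpina1d had no peak under any alternative run. With the gene body and no flank Serpina1e had none either, which left 4 members with no peak. Fold enrichment over the local background and pileup over the genome background ordered the members differently, as given for Serpina1b and Serpina3m, and the lists differently at Serpina1e. The order of the lists at Serpina1b, Serpina3k, Serpina3m, Serpina3n and Serpina6 turned with the flank. No value has a replicate error, and the sequence of CAST was not analysed here.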
